A study of Mus musculus with 6 samples.

Results

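The data described here are the vehicle-treated chondrocytes of a study of epidermal growth factor receptor activation, taken as 2 of its 6 RNA-seq libraries by their titles, control 1 and control 2. They give the baseline transcriptome of the culture: which genes were read, at what level, and which were not. Chondrocytes from the femoral epiphysis, the cartilage end of the thigh bone, of C57BL/6 mice at postnatal day 1 were grown in DMEM/F12 medium with 10% FBS and given 0.1% DMSO, the vehicle, for 48 h. All 6 libraries carried DMSO, and no transgene, deletion or Cre is named in the labels. The design text names PBS as the control instead, and calls the cells P2, which it does not explain. Whether the 2 libraries came from separate animals or cultures is not stated, so their spread may be technical.

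Epiphyseal cartilage is built by chondrocytes, which secrete type II collagen fibrils and the large proteoglycan aggrecan, whose sulfated chains hold water and give the tissue its stiffness. The transcription factor SOX9, with SOX5 and SOX6, drives the genes of this matrix. In the growth plate, chondrocytes pass from resting to proliferating to hypertrophic cells, which make type X collagen, under a feedback loop of Indian hedgehog and parathyroid hormone-related protein and under signals of the FGF, BMP, IGF and EGF families.

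Levels are given as CPM, the counts of a gene per 1000000 counts of its library, and, for ratios and orders between genes, as TPM, reads per kilobase of the gene's longest annotated transcript scaled to a sum of 1000000. TPM values are mean ± SD over the 2 libraries (n = 2), and medians over a list are in CPM unless TPM is named. The 5 marker genes given for these cells were all among the read genes. Col2a1, the type II collagen chain (chr15:97975602-98004695 in GRCm38), stood at 49064 CPM in control 1 and 46083 CPM in control 2. Acan, the aggrecan core protein (chr7:79053483-79115099), stood at 5677 CPM in control 1 and 5395 CPM in control 2. Sox9 (chr11:112782224-112787760) was read at 338 CPM in control 1 and 346 CPM in control 2. For Matn1, a cartilage matrilin (chr4:130944385-130955475), the values were 1274 and 1328 CPM, and for Fn1, fibronectin (chr1:71585520-71653200), they were 44988 and 44883 CPM. The markers fit the label of chondrocytes, although Fn1 is also made by many cultured mesenchymal cells. All 20 genes of a wider chondrocyte list, 17 of the matrix and 3 SOX factors, were at 1 CPM or more in both libraries, with a median of 508 CPM. Together they held 12.5% of the counts in control 1 and 12.1% in control 2. The lowest of the 20 were Chad, chondroadherin, at 5.49 and 5.90 CPM, and Cytl1 at 6.69 and 5.78 CPM, both named after their values were seen. In bulk RNA, fewer cells of a type and less RNA per cell cannot be told apart, here and below.

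The libraries held 13308815 and 16096263 counts over 44788 entries of the table. A threshold of 1 CPM in both libraries was passed by 13721 entries (30.6%), and by 11920 of 22670 mRNA entries (52.6%). No count in either library was found for 22308 entries (49.8%), and for 7379 mRNA entries (32.5%). A count of 0 allows up to 3 counts, which equal 0.225 CPM in control 1 and 0.186 CPM in control 2, for counting error only. The mRNA median was 2.20 CPM. The lists below may be read against it and against these mRNA shares, 52.6% at 1 CPM or more and 32.5% without a count.

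Control 1 and control 2 lay close to each other. Of 11068 entries with a mean of at least 5 CPM, 131 (1.18%) differed by 1.5-fold or more, 51 higher in control 1 and 80 higher in control 2. Among the 749 genes of the lists used here that reached this mean, 5 differed by as much. These, named after their values were seen, were Fos (7.14 and 15.6 CPM) and Egr1 (36.7 and 58.7 CPM), both immediate early genes, the skeletal factor Osr2 (6.54 and 10.3 CPM), the iron carrier Trf (4.88 and 7.58 CPM) and the isomerase Ppia (39.4 and 22.6 CPM). Fos, Egr1, Osr2 and Trf were higher in control 2, and Ppia was higher in control 1. Ppia has many processed copies in the genome, so its level carries the doubt about shared reads given below for such genes. The spread beyond counting noise came to a coefficient of variation of 5.53% by edgeR's common dispersion. Counts differed more than sampling alone gives (chi-square per degree of freedom 3.03), and the libraries were counted as 2 samples by their labels.

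**Figure D1:**
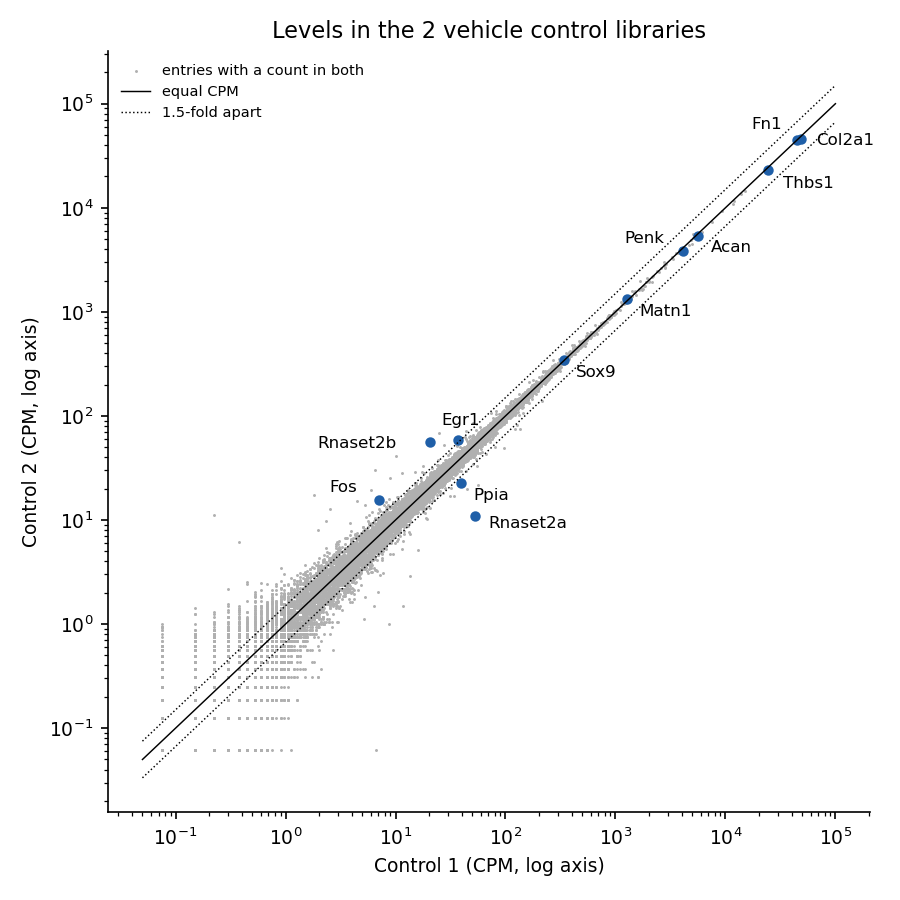
Each grey point is 1 entry with a count in both libraries, placed by its CPM in control 1 and in control 2 on log axes; the solid line marks equal CPM and the dotted lines 1.5-fold. The named matrix genes lie on the line, and Fos, Egr1, Ppia, Rnaset2a and Rnaset2b lie outside the dotted lines.

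Of the 6 entries of at least 20 mean CPM that differed most, Rnaset2a and Rnaset2b are copies of the same gene and 3 are named as ribosomal protein pseudogenes. Rnaset2a, an RNase T2 gene, was at 53.3 and 10.996 CPM, and its copy Rnaset2b at 20.7 and 55.98 CPM. Their sum was 74.0 CPM in control 1 and 67.0 CPM in control 2, so the sum was far closer than either part. The ribosomal protein pseudogenes Rps13-ps4 (10.1 and 41.4 CPM) and Rps13-ps1 (56.4 and 21.9 CPM) showed the same, with sums of 66.6 and 63.3 CPM. The other two were Gm5525 (25.02 and 67.97 CPM) and Rpl10-ps3 (45.01 and 20.1 CPM). Levels of single copies are therefore uncertain, because how reads were shared among copies is not given in the sources used here.

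A few entries took a large part of the reads. Col2a1 alone held 4.76% of the counts, Col2a1 and Fn1 9.25%, the first 10 entries 19.1%, the first 30 27.3% and the first 1000 62.0%. Of the first 10, 7 were matrix genes, and the others were the noncoding H19, the growth factor gene Igf2 and the 18S ribosomal RNA entry Rn18s-rs5, which stood at 13933 and 13591 CPM, rank 5. By mean CPM, 401 entries made up 50% of all counts. At 1000 CPM or more in both libraries stood 73 entries, 66 of them mRNA, and 7 entries passed 10000 CPM.

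**Figure D2:**
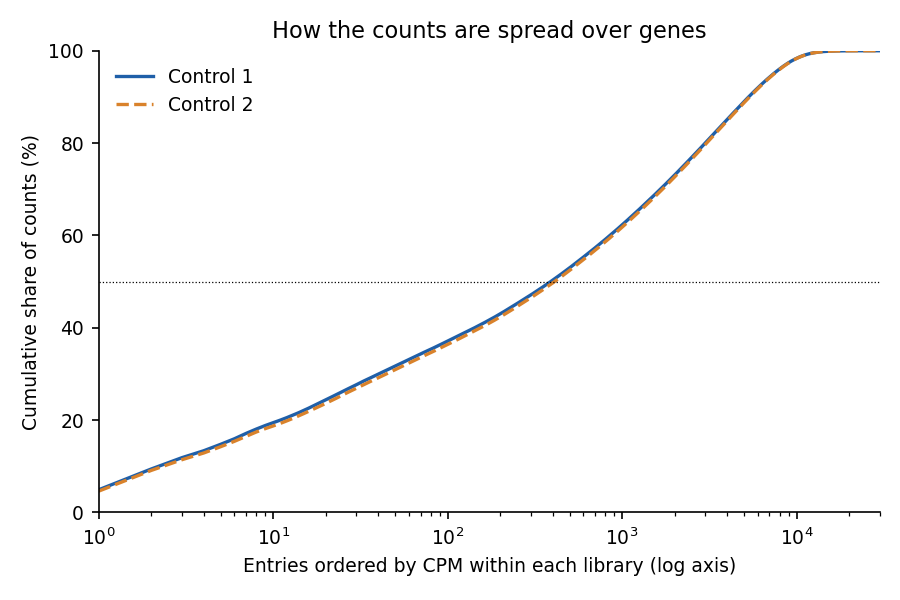
Entries are ordered by CPM within each library (log axis), and the line gives the percentage of all counts held by that many entries, for control 1 (solid) and control 2 (dashed). The first 10 entries held 19.1% and the first 1000 held 62.0% on average; the dotted line marks 50%.

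The 30 mRNA entries with the most reads were dominated by the secretory and matrix program. Among them were 8 collagen chains (Col2a1, Col11a1, Col1a2, Col1a1, Col3a1, Col5a2, Col12a1 and Col5a1). Other matrix genes of the 30 were Fn1, Thbs1, Sparc, Acan, Hspg2, Bgn, Comp, Lect1 and Ccdc80. Thbs1, thrombospondin 1, was the third mRNA by reads, at 24548 CPM in control 1 and 23203 CPM in control 2. Serpinh1, the collagen chaperone HSP47, stood at 5468 and 5587 CPM, and Lox, which crosslinks collagen, at 2396 and 2488 CPM. Growth control genes of the 30 were Igf2 (9292 and 9276 CPM), Igfbp5 (3529 and 3639 CPM), Mest (5075 and 5555 CPM) and Peg3 (2606 and 2615 CPM). The remainder were App, the amyloid precursor protein (5436 and 5256 CPM), the protease inhibitor Timp3 (3965 and 4105 CPM), Vim, Eef1a1, Eef2, Rplp0 and Penk.

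Ordered per length, the picture changed for short transcripts. Penk, which encodes the precursor of enkephalin opioid peptides, stood at 4086 CPM in control 1 and 3839 CPM in control 2 and ranked 7 of all entries with a length by TPM, at 7542 ± 355 TPM. Col2a1 remained first at 25704 ± 1219 TPM, and its TPM was 1.72 ± 0.0736 times that of Fn1. Lect1, chondromodulin, an inhibitor of vessel growth made by cartilage, reached 5546 ± 43.4 TPM (rank 12).

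Collagens are made as 3-chain helices, and 36 of 44 collagen chains in the table were at 1 CPM or more in both libraries. They held 10.8% of the counts in control 1 and 10.2% in control 2. Among fibrillar chains, all 11 passed 1 CPM, with a median of 4525 CPM. Col11a1, the type XI chain that sits inside the type II fibril, was at 4268 ± 96.3 TPM. The type I chains, typical of bone, tendon and perichondrium, were also high. Col1a2 stood at 5802 ± 312 TPM and Col1a1 at 2803 ± 111 TPM. Col2a1 had 9.17 ± 0.0730 times the TPM of Col1a1 with the longest transcript as length, and 5.60 times with the union of exons. Col1a2 had 2.07 ± 0.0297 times the TPM of Col1a1, an order that turned with the union of exons as length (0.986). Col3a1, which accompanies type I collagen in soft connective tissue, was at 2350.5 ± 155 TPM, and Col5a2, which seeds type I fibrils, at 1883 ± 73.6 TPM.

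Fibril-associated collagens coat the fibrils. Col9a1 stood at 1755 ± 44.6 TPM, Col9a3 at 444 ± 18.9 TPM and Col9a2 at 225 ± 13.03 TPM, so the 3 chains of type IX were unequal, with Col9a1 at 7.82 ± 0.255 times Col9a2 in TPM. Col12a1, a long transcript, was at 989 ± 21.8 TPM. Type VI chains, which form the beaded filaments around the chondrocyte, were led by Col6a1 at 1337 ± 37.2 TPM, with Col6a2 at 606 ± 25.5 TPM and Col6a3 at 416 ± 6.57 TPM. Among the chains of basement membranes, Col4a2 was at 121 ± 7.60 TPM. Col6a4 had no count. Col10a1, the chain of hypertrophic cartilage, was read at 29.7 CPM in control 1 and 26.1 CPM in control 2 (picked here for its role), which is 24.6 ± 2.31 TPM. Col2a1 was 1048 ± 48.99 times higher than Col10a1 in TPM, or 579 times with the union of exons as length.

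**Figure D3:**
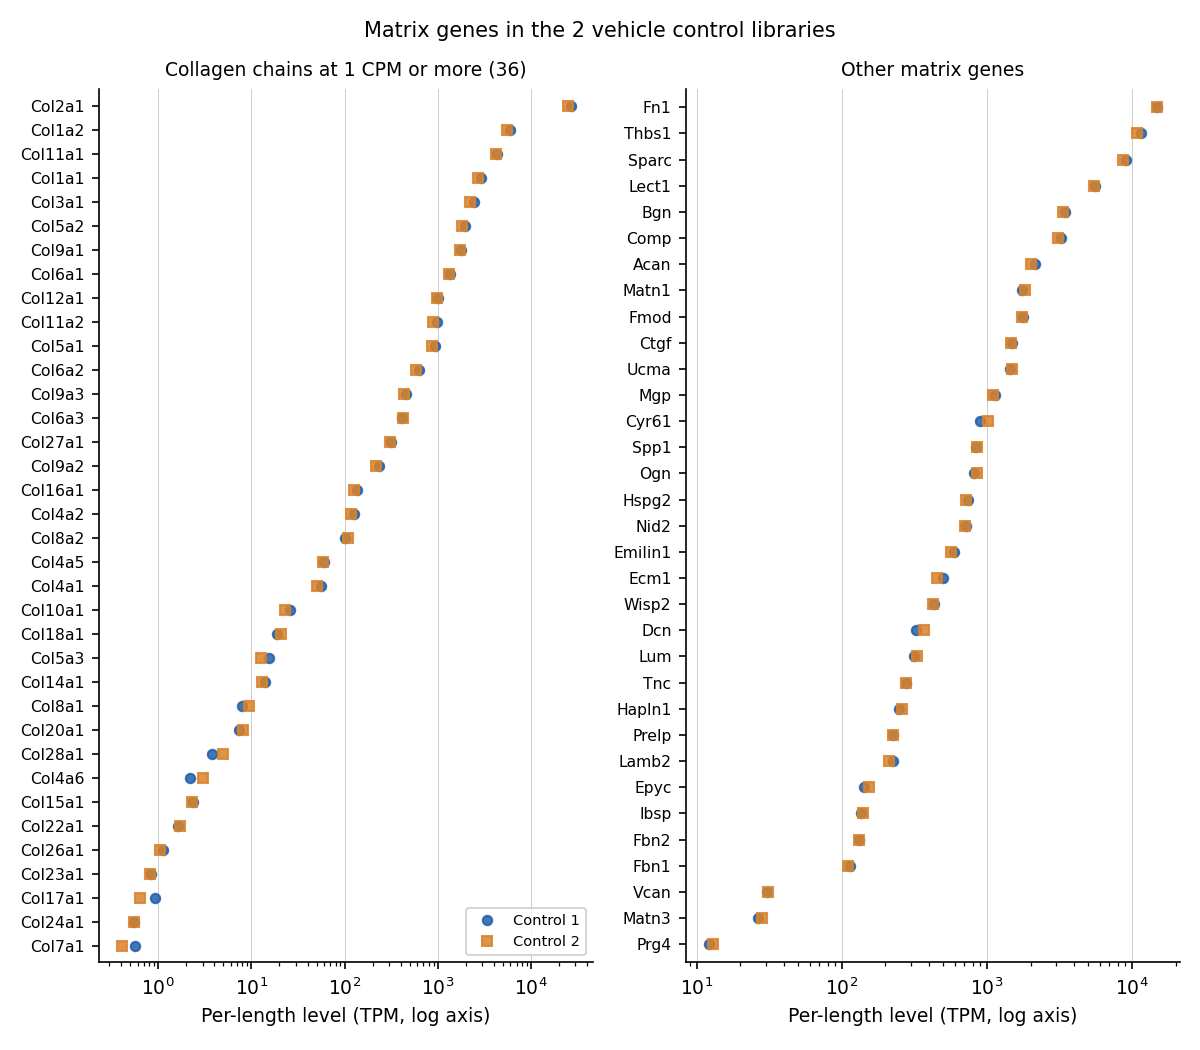
The left panel gives TPM (log axis) for the 36 collagen chains at 1 CPM or more in both libraries, and the right panel for 33 other matrix genes, with control 1 as circles and control 2 as squares. Collagen chains span from Col2a1 at 25704 TPM to Col7a1 below 1 TPM, and the 2 libraries nearly coincide for the abundant genes.

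The machinery that folds, trims and links collagen was present throughout, with 34 of 35 listed genes at 1 CPM or more and a median of 290.2 CPM. Serpinh1 led the chaperones at 6703 ± 81.1 TPM, followed by Fkbp10 at 1014 ± 23.8 TPM and Hspa5 at 975 ± 19.001 TPM. P4hb, a subunit of prolyl hydroxylase, was at 2083 ± 1.03 TPM, with P4ha1 at 485 ± 0.503 TPM and P4ha2 at 458 ± 12.5 TPM. Pcolce, which speeds removal of the C-propeptide, was at 1774 ± 9.17 TPM, while the propeptidase Bmp1 itself was at 102 ± 2.81 TPM. Lox was the highest of the oxidases at 1420.2 ± 33.2 TPM.

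Acan was the leading large proteoglycan. At 2076 ± 81.3 TPM, it was 67.9 ± 3.41 times Vcan, versican, the proteoglycan of loose mesenchyme. Col2a1 was 12.4 ± 0.103 times Acan in TPM, or 6.94 times with the union of exons. Hapln1, the link protein that fixes aggrecan to hyaluronan, stood at 513 CPM in control 1 and 538 CPM in control 2. Of the 3 hyaluronan synthases, Has2 alone passed 1 CPM, at 14.9 and 15.5 CPM. Has1 (1 and 1 counts) and Has3 (3 and 0 counts) were at or below 3 counts in each library. Perlecan, Hspg2, which lines the pericellular matrix, was at 3826 and 3699 CPM. Prg4, lubricin of the joint surface, was low at 18.6 and 19.9 CPM.

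Small leucine-rich proteoglycans, which bind and space collagen fibrils, had 13 of 16 genes at 1 CPM or more and a median of 75.2 CPM. Biglycan, Bgn, was at 3407 ± 92.7 TPM and fibromodulin, Fmod, at 1767 ± 29.3 TPM. Their order turned with the union of exons as length (Bgn 0.893 times Fmod). Below them were Ogn at 835 ± 19.7 TPM, Dcn at 347 ± 29.3 TPM, Lum at 324 ± 11.4 TPM and Prelp at 225 ± 0.934 TPM. Kera, keratocan of the cornea and tendon, had no count. Aggrecan's sulfate chains need dedicated enzymes, and 33 of 34 listed genes of their synthesis were at 1 CPM or more. Papss2, which makes the sulfate donor and whose loss causes skeletal dysplasia, was at 291 ± 11.8 TPM, and the chondroitin sulfotransferase Chst11 at 137 ± 4.85 TPM. The listed gene without a count was Chst13.

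Of 61 matrix glycoprotein genes 56 were at 1 CPM or more, with a median of 125 CPM. Thbs1 stood at 11259 ± 484 TPM and Sparc, osteonectin, at 8925 ± 326 TPM. Comp, cartilage oligomeric matrix protein, reached 3149 ± 111 TPM, and Matn1 1793 ± 47.5 TPM. Matn1 was 65.4 ± 1.14 times Matn3 in TPM, a matrilin more typical of the growth plate. Ctgf (1471 ± 14.5 TPM) and Cyr61 (956 ± 85.5 TPM), matricellular genes that respond to YAP signalling, were high. Mgp, an inhibitor of calcification, was at 1116 ± 22.9 TPM. Elastic fibre genes were led by Emilin1 (583 ± 21.3 TPM), and nidogens by Nid2 (712 ± 10.6 TPM). Vtn, vitronectin, a serum protein made by liver, had no count. Taken over 140 genes of the collagen, glycoprotein and proteoglycan lists, matrix genes held 21.9% of counts in control 1 and 21.04% in control 2, and 118 of them were at 1 CPM or more.

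Proteases and their inhibitors were both read, with 48 of 73 at 1 CPM or more and a median of 15.05 CPM. The gelatinase Mmp2 was at 571 ± 7.65 TPM and the membrane protease Mmp14 at 280.0 ± 3.27 TPM. Mmp13, the collagenase of hypertrophic and osteoarthritic cartilage, was at 171 CPM in control 1 and 179.5 CPM in control 2, or 181 ± 5.49 TPM. Mmp2 had 3.16 ± 0.138 times the TPM of Mmp13. For Mmp14 and Mmp13 the order turned with the union of exons as length (0.841 times). No count was found for 8 of 22 matrix metalloproteinases (36.4%, near the 32.5% of all mRNA entries), including Mmp1a, Mmp7, Mmp8 and Mmp10. Of the aggrecanase family, Adamts1 was at 58.5 ± 4.52 TPM. Adamts5, the main aggrecanase of mouse cartilage, was at 103 CPM in control 1 and 115 CPM in control 2. These values of Adamts1 and Adamts5 are in different units and give no order between them. Timp3, which inhibits aggrecanases, was at 2356 ± 50.3 TPM, 2.06 ± 0.0169 times Timp2 (1.26 times with the union of exons). Cathepsin D, Ctsd, was at 1593 ± 19.1 TPM and the trypsin-like protease Htra1 at 503 ± 3.80 TPM.

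Genes known from different cartilage zones were read in the same libraries. Of 9 listed genes of the resting zone 6 were at 1 CPM or more in both libraries, and 8 had a count in both. Among them, Ucma was at 443 CPM in control 1 and 459 CPM in control 2 and Gas1 at 343 and 359 CPM. Of the joint side, Abi3bp was at 922 and 933 CPM, Dcn at 554 and 627 CPM and Gdf5, a joint growth factor, at 34.9 and 33.2 CPM. The hypertrophic and mineralizing list had 15 of 20 genes at 1 CPM or more. Spp1, osteopontin, stood at 460.4 and 470.2 CPM, Vegfa at 243 and 252 CPM and Ibsp, bone sialoprotein, at 102 and 105 CPM. Spp1 was 6.18 ± 0.0290 times Ibsp in TPM. The other 5 of the list were under 1 CPM in both libraries. In control 1 and control 2, Phex had 5 and 5 counts, Dmp1 4 and 6, Ihh, the hedgehog signal of prehypertrophic cells, 6 and 1, Bglap, osteocalcin, 0 and 1 and Pthlh 0 and 1. Pthlh, parathyroid hormone-related protein, is a signal of the feedback loop and not a marker of hypertrophic cells. It is also the gene of the resting zone list that lacked a count in control 1. Cell cycle genes were read as well, with all 37 listed genes at 1 CPM or more. The replication helicase gene Mcm2 was at 57.9 and 61.9 CPM and Top2a at 64.4 and 71.5 CPM. The cell cycle inhibitors Cdkn1c (343 and 352 CPM) and Cdkn1a (277 and 306 CPM) stood beside the cyclins Ccnd2 (437 and 459.9 CPM) and Ccnd1 (178 and 183 CPM).

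Sox9, the master regulator of cartilage, led the SOX family at 228 ± 3.06 TPM, with Sox4 at 65.4 ± 2.80 TPM, Sox6 at 55.8 ± 0.832 TPM, Sox12 at 23.7 ± 1.70 TPM and Sox5 at 19.6 ± 0.761 TPM. Sox9 had 4.08 ± 0.00589 times the TPM of Sox6 and 11.7 ± 0.610 times that of Sox5. With the union of exons these became 6.98 and 23.1 times. Of 20 SOX genes 9 (45%) were at 1 CPM or more, against 52.6% of all mRNA entries, and their median was 0.209 CPM. No count was found for 7 (35%), near the 32.5% of all mRNA entries. Among these 7 were Sox1, Sox2, Sox3 and Sox14, genes of neural and stem cells.

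Other skeletal regulators were widely read, with 30 of 41 at 1 CPM or more and a median of 10.2 CPM. Twist1, which holds back RUNX2, was at 96.4 ± 10.1 TPM, the zinc finger gene Zfp521 at 86.6 ± 2.24 TPM, Barx1 at 81.2 ± 8.58 TPM, Osr1 at 74.4 ± 2.95 TPM and the limb mesenchyme factors Prrx2 and Prrx1 at 64.6 ± 8.06 TPM and 64.6 ± 0.867 TPM. Runx2, the driver of hypertrophy and bone, was at 22.6 CPM in control 1 and 27.5 CPM in control 2, picked for its role. Sox9 was 21.5 ± 2.62 times Runx2 in TPM.

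Hox genes were read unevenly by cluster, with 20 of 39 (51.3%) at 1 CPM or more and a median of 1.43 CPM. That share is near the 52.6% of all mRNA entries. Along the body axis, Hox genes of the HoxA, HoxB, HoxC and HoxD clusters mark position, and Pitx1 and Tbx4 mark hindlimb while Tbx5 marks forelimb. Hoxa10 was the highest Hox gene by TPM, at 149 CPM in control 1 and 163 CPM in control 2, followed within its cluster by Hoxa11 (68.5 and 73.8 CPM) and Hoxa9 (54.02 and 59.5 CPM). In the HoxC cluster, Hoxc10, a hindlimb gene, stood at 60.1 and 51.6 CPM and Hoxc6 at 34.4 and 34.5 CPM. By TPM, HoxD genes were led by Hoxd8 (12.2 and 11.4 CPM), and Hoxd13, of the digits, had 3 and 4 counts (picked for its role). None of 10 HoxB genes reached 1 CPM, and 5 had no count (Hoxb1, Hoxb5, Hoxb6, Hoxb7 and Hoxb13). The highest HoxB gene, Hoxb9, had 12 and 9 counts.

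Pitx1 was at 127 CPM in control 1 and 130.2 CPM in control 2 and Tbx4 at 32.4 CPM in control 1 and 34.9 CPM in control 2. Pitx1 was 4.92 ± 0.164 times Tbx4 in TPM. They were the 2 of 3 listed hindlimb genes at 1 CPM or more in both libraries. The other had counts in both libraries but did not reach 1 CPM in both. Tbx5 was also present, at 12.2 CPM in control 1 and 11.9 CPM in control 2, and Tbx4 was 3.49 ± 0.231 times Tbx5 in TPM. The tissue is labelled as femoral, and the source of the Tbx5 reads was not tested. Tbx15, a general limb factor, was at 369 and 355 CPM.

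**Figure D4:**
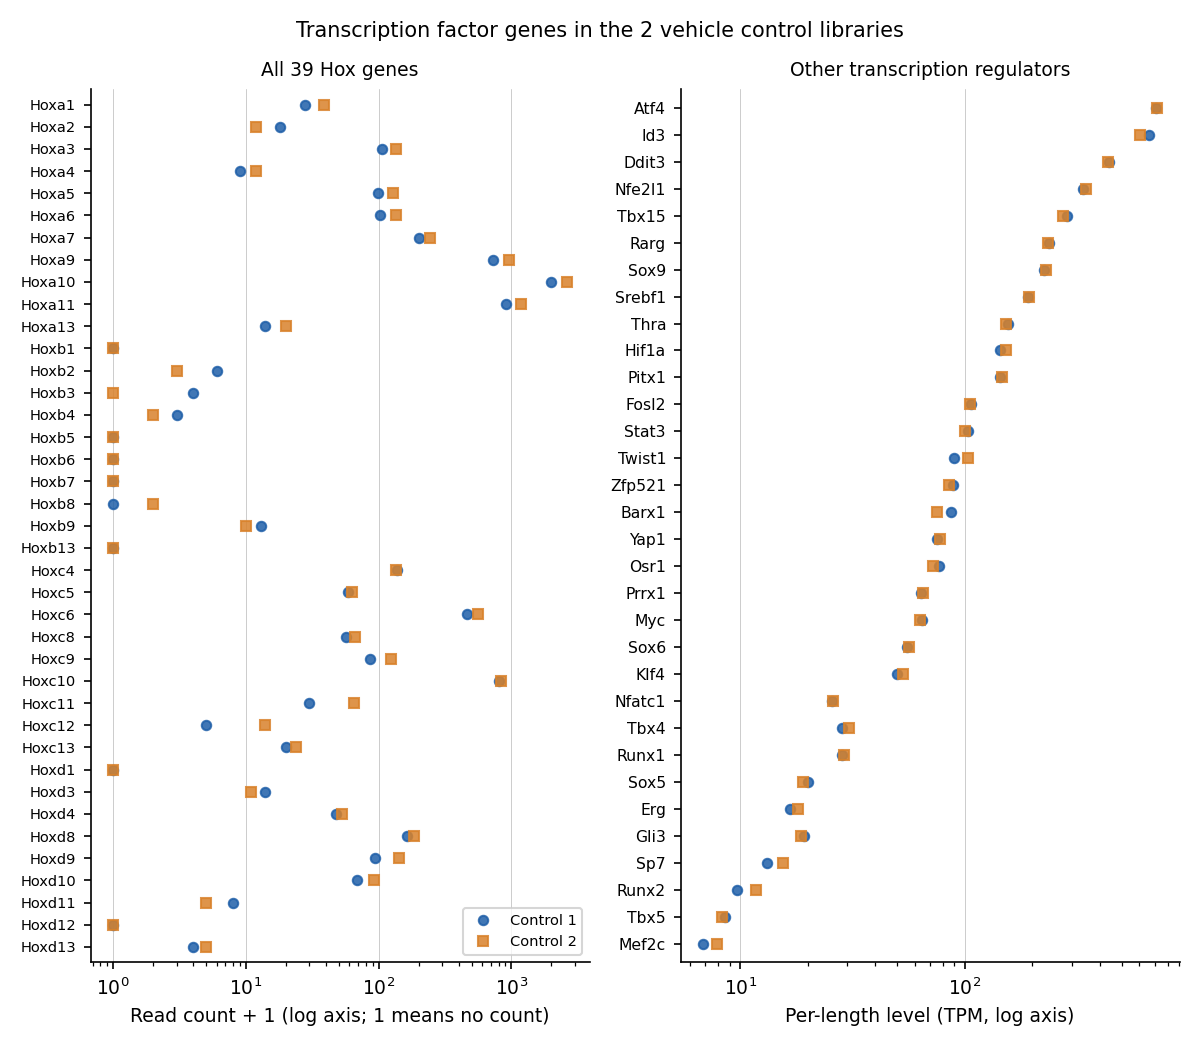
The left panel gives read count + 1 (log axis) for all 39 Hox genes by cluster, with control 1 as circles and control 2 as squares, and the right panel TPM (log axis) for 32 other regulators. Hoxa10 has the most reads of the Hox genes, and HoxB genes lie at or near no count.

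Of signal-driven factors, Atf4 of the stress response was at 714 ± 5.84 TPM, and Id3, a target of BMP signalling, at 632 ± 45.2 TPM. Ddit3, CHOP, was at 435 ± 3.15 TPM and Nfe2l1 at 341 ± 7.09 TPM. The AP-1 members Fosl2 (106 ± 0.491 TPM) and Jund (101 ± 4.82 TPM) exceeded Jun (41.8 ± 0.660 TPM) and Fos (14.9 ± 7.77 TPM) in TPM. Myc was at 63.6 ± 0.843 TPM and Klf4 at 51.6 ± 2.15 TPM, and Mycn had no count. Hif1a, which keeps chondrocytes alive in low oxygen, was at 148 ± 5.42 TPM. In the nuclear receptor family 25 of 48 (52.1%) passed 1 CPM, near the 52.6% of all mRNA entries, and the median was 1.44 CPM. Rarg, a retinoic acid receptor known from cartilage, led at 237 ± 1.49 TPM, followed by the thyroid hormone receptor Thra at 154 ± 2.65 TPM, Nr1h2 at 107 ± 6.16 TPM and Rxra at 73.6 ± 0.227 TPM. Esrrb, Esrrg, Hnf4a and Hnf4g were among 11 (22.9%) without a count, against 32.5% of all mRNA entries.

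In the EGFR, FGF, hedgehog, IGF, TGF-beta, BMP and Wnt pathways together, 44 of 54 receptors and 39 of 94 ligands were at 1 CPM or more in both libraries, against 52.6% of all mRNA entries. The receptor median was 20.3 TPM and the ligand median 0.249 TPM. The EGFR family, which the study set out to activate, had 2 of 4 receptors at 1 CPM or more. Egfr was at 66.6 CPM in control 1 and 63.6 CPM in control 2 and Erbb2, the partner that binds no ligand, at 57.5 CPM in control 1 and 52.9 CPM in control 2. Erbb2 had 1.73 ± 0.0455 times the TPM of Egfr. Erbb3 had 6 and 15 counts and Erbb4 none. The ligand Tgfa, which the study added to other samples as protein, was itself read at 29.5 CPM in control 1 and 28.7 CPM in control 2, and Hbegf at 10.2 CPM in control 1 and 11.6 CPM in control 2, while Areg, Epgn and Nrg3 had no count. Tgfa was 1.71 ± 0.180 times Hbegf in TPM. Of the negative regulators, Lrig3 was at 246 and 253 CPM and Errfi1 at 18.1 and 18.3 CPM, and the sheddase Adam17, which frees Tgfa from the membrane, at 59.7 and 59.6 CPM.

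Hedgehog and PTHrP receptors were read while their ligands were near 0. Smo was at 336 CPM in control 1 and 321 CPM in control 2, Gas1 at 343 and 359 CPM, Boc at 267 and 276 CPM and Cdon at 447 and 447 CPM. Pth1r, the PTHrP receptor, stood at 50.3 CPM in control 1 and 59.02 CPM in control 2. Of the ligands, Ihh had 6 and 1 counts, Pthlh 0 and 1 and Dhh 0 and 2, and Shh and Pth had none. Of 5 listed ligands none reached 1 CPM, against 6 of 9 receptors. Ptch1, itself a target of hedgehog signalling, was at 41.6 and 37.96 CPM.

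FGF receptors, of which an overactive FGFR3 stunts bone growth, were all read except the coreceptors. The decoy receptor Fgfrl1 was at 429.9 ± 25.4 TPM, Fgfr2 at 400.3 ± 9.40 TPM, Fgfr3 at 294 ± 7.15 TPM and Fgfr1 at 209.9 ± 1.12 TPM. Fgfr3 was 1.40 ± 0.0415 times Fgfr1 in TPM, and the order of Fgfr2 and Fgfr3 turned with the union of exons as length (Fgfr2 0.987 times Fgfr3). Of 22 FGF ligands 6 (27.3%) reached 1 CPM and 10 (45.5%) had no count, against 52.6% and 32.5% of all mRNA entries. Fgf1, Fgf3, Fgf4 and Fgf6 were among the 10. Fgf21 (12.5 and 14.2 CPM), a hormone of metabolism, and Fgf7 (34.9 and 37.6 CPM) were the highest by TPM. Fgf18, the ligand of FGFR3 made by perichondrium, was at 1.28 and 1.74 CPM. Kl and Klb, the coreceptors of the hormone-like FGFs, had no count.

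The IGF axis was dominated by 1 ligand. Igf2, a fetal growth factor, was at 5422 ± 23.9 TPM and Igf1, the postnatal one, at 8.08 ± 0.471 TPM. Igf2 had 672 ± 42.2 times the TPM of Igf1. Ins1 and Ins2 had no count. Igf2r, which clears IGF2, was at 279.7 ± 4.51 TPM, 10.8 ± 0.0646 times Igf1r, which signals. Binding proteins were led by Igfbp5 at 1646 ± 30.6 TPM and Igfbp4 at 697 ± 21.9 TPM, and Igfbp5 was 172 ± 2.16 times Igfbp3 (picked for its known role as the main serum carrier). Igfbp1 had no count.

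Among TGF-beta genes, Tgfb3 was at 93.8 and 92.4 CPM, Tgfb2 at 117 and 115 CPM and Tgfb1 at 27.6 and 28.3 CPM. Tgfb2 was 2.08 ± 0.0627 times Tgfb1 in TPM, or 3.61 times with the union of exons. The type II receptor Tgfbr2 stood at 427 and 446 CPM and the type I receptor Tgfbr1 at 19.5 and 17.3 CPM, a ratio of 16.9 ± 1.99 in TPM. Fstl1 was the highest secreted antagonist by TPM, at 681 and 681 CPM. Of BMP ligands, Bmp4 was at 143 CPM in control 1 and 144 CPM in control 2. Its TPM of 192 ± 0.155 TPM was above that of Gdf5 (40.5 ± 1.49 TPM) and Gdf10 (27.1 ± 2.47 TPM), while Bmp8b, Bmp10, Gdf2 and Gdf3 had no count. Its antagonists were read too, with Twsg1 at 149.8 and 148 CPM, Grem1 at 146 and 139.6 CPM and Nog at 27.9 and 30.9 CPM. Bmpr1a was at 96.8 and 101 CPM and Bmpr1b at 4.06 and 2.05 CPM.

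Wnt antagonists are secreted proteins that bind Wnts or their receptors. Dkk3 was at 774 CPM in control 1 and 757 CPM in control 2, Sfrp2 at 330.1 CPM in control 1 and 314 CPM in control 2 and Frzb, an antagonist known from cartilage, at 166 CPM in control 1 and 168 CPM in control 2. Ligands and enhancers were led by Rspo3 at 63.2 and 62.996 CPM and Wnt5a at 34.3 and 33.7 CPM. Of 23 in this class 8 had no count (34.8%, near the 32.5% of all mRNA entries), among them Wnt1, Wnt3, Wnt3a and Wnt7a. By TPM, Fzd9 (150.3 ± 2.80 TPM) and Fzd2 (145 ± 5.01 TPM) were the highest receptors, in an order that differed between the 2 libraries, and 16 of 18 were at 1 CPM or more. Sost and Dkk4, antagonists, and Fzd10 had no count.

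**Figure D5:**
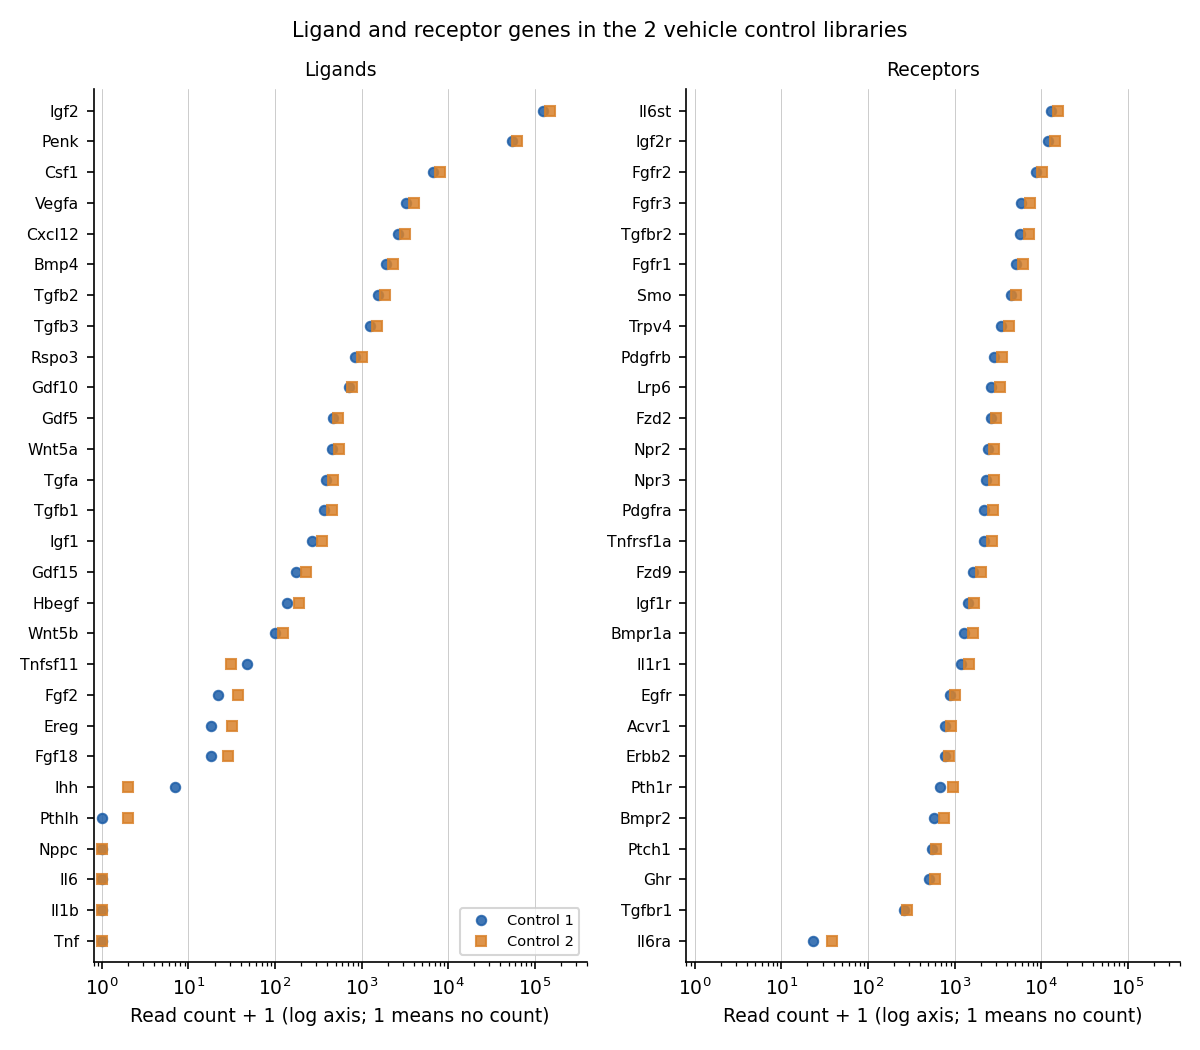
Read count + 1 (log axis) for 28 ligands (left) and 28 receptors (right), ordered by reads and not per length, with control 1 as circles and control 2 as squares; 1 means no count. Igf2 and Penk have the most reads of the ligands, Nppc, Il6, Il1b and Tnf have no count, and the receptors run from Il6ra (22 and 37 counts) to Il6st (13072 and 15652 counts).

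Csf1, the macrophage growth factor, was at 497 CPM in control 1 and 504 CPM in control 2, and Mif at 106 CPM in control 1 and 103 CPM in control 2. No count was found for 16 of 34 cytokines (47.1%), among them Il1a, Il1b, Il4 and Il5. Likewise 13 of 30 chemokines (43.3%) had none, among them Ccl3, Ccl4, Ccl8 and Ccl11. Over all mRNA entries this share was 32.5%. Cxcl12 was the highest chemokine by TPM, at 195 CPM in control 1 and 196 CPM in control 2. Receptors of inflammatory cytokines were read, with Il6st at 982 and 972 CPM, Tnfrsf1a at 165 and 167 CPM and Osmr at 183 and 190.0 CPM. Npr2, the receptor of C-type natriuretic peptide, a regulator of bone length, was at 182 CPM in control 1 and 177 CPM in control 2, and its ligand Nppc had no count. Npr2 was 1.93 ± 0.0938 times the clearance receptor Npr3 in TPM (Npr3 was picked for its role). Mechanical channels Trpv4 (256 CPM in control 1 and 261 CPM in control 2) and Piezo1 (362 CPM in control 1 and 344 CPM in control 2), through which chondrocytes sense load, were both read, with Trpv4 1.87 ± 0.0960 times Piezo1 in TPM. Pdgfrb stood at 212 and 218 CPM and Pdgfra at 166 and 171 CPM. Calcr and Casr had no count. Integrins, the cell's matrix anchors, were led by Itgb1 (375 ± 9.77 TPM), Itga5, which pairs for fibronectin, (229 ± 2.30 TPM) and Itgb5 (222 ± 4.73 TPM). Itga10, the collagen II receptor of chondrocytes, was at 52.4 ± 2.40 TPM, and Itga5 was 4.37 ± 0.244 times higher in TPM. The leukocyte chains Itgad, Itgam and Itgax had no count.

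Imprinted genes, read from 1 parental copy and tied to fetal growth, held 4.05% of the counts in control 1 and 4.09% in control 2. Of 29 on the list 25 were at 1 CPM or more, with a median of 63.9 CPM. The noncoding H19 was at 14994 CPM in control 1 and 14581 CPM in control 2, which made it the entry of rank 4 by reads and 2 by TPM. H19 was 3.29 ± 0.0607 times its neighbour Igf2 in TPM. The noncoding Meg3 was at 1922 CPM in control 1 and 2105 CPM in control 2. Gnas, a signalling G protein gene, was at 1884 and 1916 CPM, Cdkn1c at 343 and 352 CPM and Peg3 at 2606 and 2615 CPM. Rtl1 had no count. Because these loci hold overlapping transcripts and the use of strand in counting is not given, single levels carry that doubt.

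Markers of other cell types were tallied by list, against the 32.5% of all mRNA entries without a count. For lymphocytes 12 of 13 markers had no count, including Cd3d, Cd3e, Cd3g and Cd4, and the list summed to 0 and 0.186 CPM. For neutrophils and mast cells 9 of 10 had none (S100a8, S100a9, Camp and Mpo among them). For macrophages 7 of 14 had none, including Emr1, Ptprc and Tyrobp, and 3 were at 1 CPM or more in both libraries. No macrophage marker reached 10 CPM in both libraries, and the list summed to 5.56 and 6.46 CPM. The red cell list summed to 0.376 and 0.870 CPM. Of 12 endothelial markers 4 had no count and 2 were at 1 CPM or more, and the list summed to 91.7 and 98.5 CPM. The 4 without a count were Cdh5, Tie1, Emcn and Cldn5, a share (33.3%) near that of all mRNA entries. The 2 at 1 CPM or more were Eng (71.5 and 76.2 CPM), also a TGF-beta coreceptor of other cells, and Erg (19.5 and 21.4 CPM), also a joint cartilage factor. The rest of the endothelial list had reads but did not reach 1 CPM in both libraries. Of 9 hepatocyte markers 5 had no count, with sums of 5.33 and 7.83 CPM, and Alb, Afp, Ttr and Fgb were among the 5. Of 10 epithelial markers 3 had no count, namely Epcam, Krt14 and Cldn4, and Krt19 (3.23 and 3.29 CPM) was the gene at 1 CPM or more, with sums of 4.88 and 5.34 CPM. The smooth muscle and pericyte list was higher, at 1238 and 1173 CPM, most of it Cspg4 (573 and 563 CPM) and Acta2 (526 and 475 CPM), both picked after their values were seen.

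Fibroblast and perichondrium markers were high instead, with 13 of 14 at 1 CPM or more and sums of 23563 and 22048 CPM, most of it Col1a2, Col1a1 and Col3a1. Lum was at 279.7 and 295 CPM, Pdgfra at 166 and 171 CPM and Ly6a at 98.1 and 93.9 CPM. Acta2, smooth muscle actin, which is also a sign of spread mesenchymal cells in culture, was at 526 CPM in control 1 and 475 CPM in control 2, and Tagln at 110.2 and 102 CPM. S100b, listed as glial but also a known cartilage gene, was at 75.1 and 70.1 CPM. Osteoclast markers had 3 of 10 at 1 CPM or more and 2 at 10 CPM or more, with sums of 108 and 111 CPM. Of these, Ctsk was at 61.2 and 63.4 CPM, and Calcr, Ocstamp, Dcstamp and Atp6v0d2 were among 5 without a count. Tendon and ligament markers had 6 of 7 at 1 CPM or more, with a median of 7.79 CPM. The list summed to 2087 and 2067 CPM, most of it Fmod, its 1 gene at 1000 CPM or more. Fmod is also given above among the small leucine-rich proteoglycans. Of the other tendon and ligament markers, Scx was at 7.51 and 6.52 CPM and Tnmd at 3.16 and 3.42 CPM. Osteoblast markers had 6 of 11 at 1 CPM or more, with a median of 1.27 CPM. The list summed to 6556 and 6250 CPM, most of it Col1a1 (6183 and 5873 CPM), which the fibroblast list also counted. Fat cell genes summed to 22.3 and 20.2 CPM and skeletal muscle genes to 11.4 and 11.1 CPM. How much of the type I collagen came from such cells was not tested. Xist, read from the inactive X of female cells (468 and 485 CPM), and the Y-linked Ddx3y (26.5 and 24.5 CPM), Eif2s3y (14.1 and 10.8 CPM), Kdm5d (15.3 and 16.6 CPM) and Uty (3.76 and 5.40 CPM) were read in both libraries. The labels give no sex.

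Large gene families of other tissues had few reads or none. Of 1425 olfactory receptor entries 1417 had no count, and of 623 vomeronasal receptor entries 607, with 3 vomeronasal entries at 1 CPM or more. All 53 keratin-associated, 382 immunoglobulin segment, 254 T cell receptor segment, 20 major urinary protein and 25 prolactin family entries had none. The share without a count was 49.8% of all entries and 32.5% of mRNA entries. It was 67.3% of ncRNA entries, which include immunoglobulin and T cell receptor segments. Some segments are as short as 11 bases, where a count of 0 says little. Keratins had no count in 31 of 52, and 4 were at 1 CPM or more. By contrast, 78 of 80 ribosomal protein genes and 34 of 58 clustered protocadherins were at 1 CPM or more. By TPM, protocadherins were led by Pcdhgc3, picked after its value was seen, at 129.8 and 121 CPM.

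Some housekeeping levels cannot be read at face value. Gapdh, usually among the most abundant mRNAs, was at only 9.84 and 8.32 CPM (picked after its value was seen), and Tpt1, likewise picked, was at 82.3 and 104 CPM, while entries named as pseudogenes of Tpt1 held 638 and 640 CPM. Of 182 genes with named pseudogene entries and at least 10 CPM in all, 47 had more CPM in the pseudogenes than in the gene in both libraries. Ribosomal protein genes held 1.83% and 1.87% of counts, and 283 entries named as their pseudogenes 0.769% and 0.773%. The levels of such genes are uncertain, since how reads shared by copies were counted is not known.

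Promoter windows were compared with level as a description only. For 15751 of 22670 mRNA entries RefSeq (GRCm38.p6) gave a start, and the 250 bases before it were searched for CG dinucleotides (where a gene had several starts, the window with the most CG was used, and a motif was counted if any window held it). Windows per gene rose with level, from a mean of 1.09 with no count to 1.29 from 10 to under 100 CPM and 1.46 at 1000 CPM or more. More windows give more chances of a high CG number or a motif, and the size of this effect was not tested. The median was 2 CG in genes with no count, 7 below 1 CPM, 15 from 1 to under 10 CPM, 18 from 10 to under 100 CPM, 19 from 100 to under 1000 CPM and 14 at 1000 CPM or more, against 11 over all. The class of 1000 CPM or more held only the 48 genes with a window, while 66 mRNA entries reached 1000 CPM in both libraries. Col2a1, Fn1 and Thbs1 had no window. For the 46 matrix genes with a window, of 67 at 100 CPM or more in both libraries, the median was 9.5. The motif GGGCGG, which itself holds a CG, was on either strand in 13.7% of genes without a count, 71.2% of genes from 100 to under 1000 CPM, and 47.3% of all genes with a window. TATAAA between 45 and 16 bases before the start, on the sense strand, was in 6.50% of genes without a count, 4.35% of the 46 matrix genes and 3.15% of all.

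The 4 windows printed here, picked after their values were seen, show how far abundant genes differ. Capitals mark CG dinucleotides. They are Eef2 (chr10:81176381-81176630, plus strand, 23 CG), a translation factor; Acan (chr7:79052976-79053225, plus strand, 26 CG); Col3a1 (chr1:45311288-45311537, plus strand, 0 CG); and the unread Kera (chr10:97606955-97607204, plus strand, 1 CG).
Eef2: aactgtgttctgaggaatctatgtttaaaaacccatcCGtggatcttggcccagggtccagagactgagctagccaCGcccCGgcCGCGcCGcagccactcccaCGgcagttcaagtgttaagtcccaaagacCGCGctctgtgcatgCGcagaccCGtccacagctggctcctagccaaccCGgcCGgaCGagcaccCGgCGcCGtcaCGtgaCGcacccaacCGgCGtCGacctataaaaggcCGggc
Acan: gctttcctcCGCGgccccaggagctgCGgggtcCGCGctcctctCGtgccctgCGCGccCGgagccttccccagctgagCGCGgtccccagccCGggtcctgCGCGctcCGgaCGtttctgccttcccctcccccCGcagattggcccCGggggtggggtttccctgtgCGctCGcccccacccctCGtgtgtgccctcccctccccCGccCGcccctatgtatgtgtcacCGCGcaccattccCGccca
Col3a1: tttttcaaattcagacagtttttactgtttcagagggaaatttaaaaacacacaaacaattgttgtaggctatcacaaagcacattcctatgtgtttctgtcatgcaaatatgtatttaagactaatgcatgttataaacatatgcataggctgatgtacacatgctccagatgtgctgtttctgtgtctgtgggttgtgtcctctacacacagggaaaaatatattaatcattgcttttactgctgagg
Kera: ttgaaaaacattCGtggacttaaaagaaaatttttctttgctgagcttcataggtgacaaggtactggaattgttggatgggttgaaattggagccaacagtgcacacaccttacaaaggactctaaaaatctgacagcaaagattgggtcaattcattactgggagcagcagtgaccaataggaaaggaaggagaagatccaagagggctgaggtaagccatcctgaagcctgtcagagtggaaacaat
Acan was read at 5677 and 5395 CPM and Col3a1 at 4953 and 4531 CPM, with 26 and 0 CG in these windows.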

How the data were processed

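The authors deposited 1 table of raw read counts per gene, as whole numbers with 1 column per library, for Ion Proton libraries of total RNA, per the labels' protocols. The build listed by the submitters' processing notes is GRCm38. Which aligner, counter, annotation and strand setting were used is not given in the sources used here, and neither is the RNA extraction. Only the 2 control columns were described. TMM factors, tried as an alternative, came from all 6 libraries for levels and from the 2 controls for their difference.

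CPM is the count over the library total. TPM used the longest transcript in GENCODE M21, found for 32217 entries that held 98.0% of control counts. Dispersion came from edgeR 4.0.16 in R 4.3.3, with filterByExpr at a minimum count of 10 (1 residual degree of freedom), and was tested on simulated counts. No test between groups was made. DESeq2 1.42.0 size factors, other lengths and thresholds were alternatives.

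Named genes were the 5 markers, the 30 mRNA entries of highest CPM, up to 6 members per role with the highest TPM and up to 4 without a count, and the 6 entries differing most between libraries; others are said to be picked, and 1 gene that this rule names is not reported here, for a reason unrelated to its value. Members and the 49 lists were chosen with earlier results of these data known. Of 1289 list genes in the table, 886 were at 1 CPM or more and 183 had no count. Osteoblast and adipocyte lists had 6 of 11 and 4 of 9 at 1 CPM or more, neuron and glia 5 of 13, smooth muscle and pericyte 6 of 10, tendon and ligament 6 of 7, osteoclast 3 of 10, and Notch and Eph genes 5 of 9.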

Additional observations from a re-analysis of the deposited data

How the results depend on the processing

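The number of entries at 1 CPM or more in both controls was 13721, and it stayed within 1.5-fold under every alternative threshold, scaling and total tried (10887 to 19187). Of all counts, 50% lay in 401 entries, or 390 to 411 with either library left out. Entries differing by 1.5-fold between the controls rose from 131 to 1977 when the minimum was 10 counts in total, where counting noise is larger, fell to 29 at a mean of 20 CPM, and were 125 with TMM factors from the 2 controls. The coefficient of variation was 5.53%, and 5.64% with no filter beyond 1 count. List genes at 1 CPM or more numbered 886, and 877 to 900 under the alternatives. With the union of exons as length, 89 of 98 roles kept their highest member, and 95 with the longest coding transcript, an alternative added after seeing the data, or 92 to 95 with either library left out. Of 31 ratios between genes, 10 moved by over 1.5 times with the union of exons, and 4 turned: Col1a2 over Col1a1 (0.986), Bgn over Fmod (0.893), Fgfr2 over Fgfr3 (0.987) and Mmp14 over Mmp13 (0.841). The cause was not tested beyond the change of length. No paired analysis was possible because only 1 group was described and no groups were compared. With 2 libraries, an SD rests on 1 degree of freedom, and levels of up to 3 counts cannot be told from 0.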
